A study of Caenorhabditis elegans with 9 samples.

Results

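The genes described here encode ubiquitin, the enzyme that activates it, the scaffold, RING and adaptor subunits of cullin-RING ubiquitin ligases, and enzymes that take ubiquitin off again. They were chosen by symbol: probe sets that the array annotation assigns to a single gene named ubq, ubc, cul, skr, usp, ubh, otub or rbx with a number, or to uba-1. The rule found 46 genes with 59 probe sets, of 17118 genes and 22548 probe sets in all. They are the E1 gene uba-1, 2 ubiquitin genes (ubq), 6 cullin genes (cul), 2 RING subunit genes (rbx), 19 Skp1-related genes (skr), and 16 deubiquitinase genes, of which 9 are named usp, 3 ubh and 4 otub. Genes of the ubc class, which encode E2 conjugating enzymes, were not analysed here. The tests covered 43 of the 46 genes. The other 3, skr-6, skr-14 and usp-3, were too dim to pass the filter on signal.

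RNA was measured on 9 expression arrays of Caenorhabditis elegans, each hybridised with RNA from whole animals that the labels call L1 larvae, synchronised by bleaching and fed OP50 bacteria. The aex-3 SUMO group (3 arrays) carries the transgene aex-3::his-SUMO-1 (JS62), and the myo-4 SUMO group (3 arrays) carries myo-4::his-SUMO-1 (JS63). Both express a His-tagged SUMO-1, the small ubiquitin-like modifier of the worm, the first from the promoter of a neuronal gene and the second from that of a body wall muscle myosin gene, also called unc-54. N2 (3 arrays) is the wild-type strain without a transgene. The labels name no other allele or agent in any group. The 3 replicates of a group are separate populations of animals, per the series' design text, so p-values measure the spread between populations, and each transgene was sampled in 1 line. With 3 arrays per group, precision is limited by the number of arrays.

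Ubiquitin is a small protein that cells attach to other proteins, often to mark them for the proteasome. An E1 enzyme activates it, an E2 enzyme carries it, and an E3 ligase selects the substrate. In cullin-RING ligases, a large class of E3, a cullin holds the RING subunit, which recruits the E2, at one end and an adaptor with a substrate receptor at the other. With CUL-1 the adaptor is a Skp1-related protein and the receptor an F-box protein. Worms have an expanded set of Skp1-related genes, several of which lie side by side. Deubiquitinases cut ubiquitin from substrates and from its precursors, and some of them work on the proteasome.

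A principal component analysis of all tested probe sets set the N2 arrays apart from both SUMO lines on the first component (61.6% of the variance), and N2 replicate 1 stood apart from the other N2 arrays on the second (11%). For RNA quality, 3' signal was set against 5' signal in 5 worm control transcripts, and the log2 ratio averaged 0.319 to 0.347 in aex-3 SUMO, 0.275 to 0.405 in myo-4 SUMO, and 0.537, 0.456 and 0.331 in N2, so that N2 replicates 1 and 2 lay above all other arrays. The smo-1 probe set, for the worm's SUMO gene, was higher in both lines (log2 fold change 0.69 ± 0.13, adjusted p = 0.00117, in aex-3 SUMO and 0.59 ± 0.13, adjusted p = 0.00318, in myo-4 SUMO; SE); whether it detects the transgenes is not known here. Neither promoter gene was called higher. The aex-3 gene differed from N2 by 0.05 ± 0.63 in aex-3 SUMO, an SE too wide to decide whether it rose. The unc-54 gene was lower in both lines, at -0.69 ± 0.17 in aex-3 SUMO and -1.12 ± 0.17 in myo-4 SUMO (limma, adjusted p = 0.005 and 0.000267). Between the lines it did not pass (-0.43 ± 0.17, adjusted p = 0.453). Markers of adult tissue were bright although the label is L1 larvae. The summed signal of 20 oocyte and germline markers was 19196 to 20695 in aex-3 SUMO, 19321 to 21710 in myo-4 SUMO and 9853 to 15700 in N2, and that of 5 yolk genes was 18072 to 19719 in aex-3 SUMO, 16054 to 19753 in myo-4 SUMO and 11739 to 15417 in N2. The 27 sperm markers overlapped between the groups (76815 to 85368 in aex-3 SUMO, 68138 to 87854 in myo-4 SUMO and 82558 to 120918 in N2), as did the sums of 5 markers of early larvae (180 to 223 in aex-3 SUMO, 181 to 224 in myo-4 SUMO, 214 to 249 in N2). Of 4 early larva markers tested, however, 3 were lower in each line (lin-42, hbl-1 and lin-46; list medians -0.85 in aex-3 SUMO and -0.64 in myo-4 SUMO), or 2 in each line after quantile normalization and 2 in aex-3 SUMO and 1 in myo-4 SUMO after median centring, while lin-28 was higher in aex-3 SUMO (0.48, adjusted p = 0.0234). The 14 neuronal markers summed to 1560 to 1787 (aex-3 SUMO), 1714 to 1867 (myo-4 SUMO) and 2643 to 2898 (N2), and the 13 muscle markers to 15826 to 16706 (aex-3 SUMO), 14521 to 17634 (myo-4 SUMO) and 20104 to 23048 (N2). Such sums weigh bright genes most, and the muscle marker unc-22 went the other way (mean 30.8 in aex-3 SUMO, 54.2 in myo-4 SUMO and 16.3 in N2). With 1 array left out, 1 to 2 muscle markers were called higher and 5 to 8 lower in aex-3 SUMO. In myo-4 SUMO 1 to 2 were higher and 4 to 7 lower. The part that these differences have in the results below was not tested. In RNA from whole animals, fewer cells of a type and less RNA per cell cannot be told apart.

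The first question is how these genes differed between each SUMO line and N2. In aex-3 SUMO, 16 of the 43 tested genes were higher and 6 lower (limma, Benjamini-Hochberg adjusted p under 0.05 over all tested probe sets), and 21 did not pass. That is 37.2% higher and 14% lower, while over all 10768 genes tested 24.6% were higher and 24.7% lower. Among the 43, skr-7 and skr-13 passed the filter with no N2 array above its limit. Without these 2 genes 15 of 41 were higher and 6 lower in aex-3 SUMO (36.6% and 14.6%). In myo-4 SUMO 17 were then higher and 7 lower (41.5% and 17.1%). Leaving out every gene with no array above the limit in a group left 10259 genes. Of these, 25.3% were higher and 24.2% lower in aex-3 SUMO, and 24.8% higher and 20.9% lower in myo-4 SUMO. The median log2 fold change of the 43 genes in aex-3 SUMO was 0.25, against -0.04 over all genes. In myo-4 SUMO, 18 were higher and 7 lower, or 41.9% higher and 16.3% lower, beside 24.2% higher and 21.1% lower of all genes. The median there was 0.35, against 0.00 over all genes. Both comparisons use the same N2 arrays, so they are not independent of each other. Centring each array on its median instead of using the deposited scaling shifted the median of all genes to 0.17 in aex-3 SUMO and 0.14 in myo-4 SUMO. Member counts were then 24 higher and 4 lower in aex-3 SUMO and 25 higher and 5 lower in myo-4 SUMO, beside 3930 higher and 1617 lower, and 3490 higher and 1584 lower, of all genes.

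Counts by family follow, with no test of a difference between families. Of 15 tested deubiquitinase genes, 8 were higher and 0 lower in aex-3 SUMO, or 53.3% higher. In myo-4 SUMO 11 were higher and 0 lower, or 73.3% higher. Of 17 tested Skp1-related genes, 4 were higher and 5 lower in aex-3 SUMO (23.5% and 29.4%). In myo-4 SUMO 4 were higher and 7 lower (23.5% and 41.2%). The 17 include skr-7, called higher in each line, and skr-13, both with no N2 array above the filter limit. Without these 2 genes, 3 of 15 were higher and 5 lower in aex-3 SUMO. In myo-4 SUMO 3 of 15 were then higher and 7 lower. With the 60th percentile filter, which drops dim genes, 2 Skp1-related genes were higher in each line. Of the 8 cullin and RING subunit genes, 3 were higher and 1 lower in aex-3 SUMO, beside 24.6% higher and 24.7% lower of all genes. In myo-4 SUMO 2 of the 8 were higher and 0 lower, beside 24.2% higher and 21.1% lower of all genes, so the higher share was near that of all genes. These last counts moved with the processing. After median centring 5 were higher in aex-3 SUMO and 7 in myo-4 SUMO, beside 3930 and 3490 of all 10768 genes. With array weights 4 were higher in myo-4 SUMO, and without aex-3 SUMO replicate 3 only 1 was higher in aex-3 SUMO. The counts of deubiquitinases were 8 higher and 1 lower (ubh-1) in aex-3 SUMO and 9 higher and 0 lower in myo-4 SUMO after quantile normalization. After median centring they were 12 higher and 0 lower in each line. Of all 10768 genes, 3930 were then higher in aex-3 SUMO and 3490 in myo-4 SUMO. With array weights ubh-1 was lower in aex-3 SUMO as well, and without N2 replicate 3, 7 were higher and 1 lower there. Without myo-4 SUMO replicate 1, 8 deubiquitinases and 2 Skp1-related genes were higher in myo-4 SUMO.

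**Figure D1:**
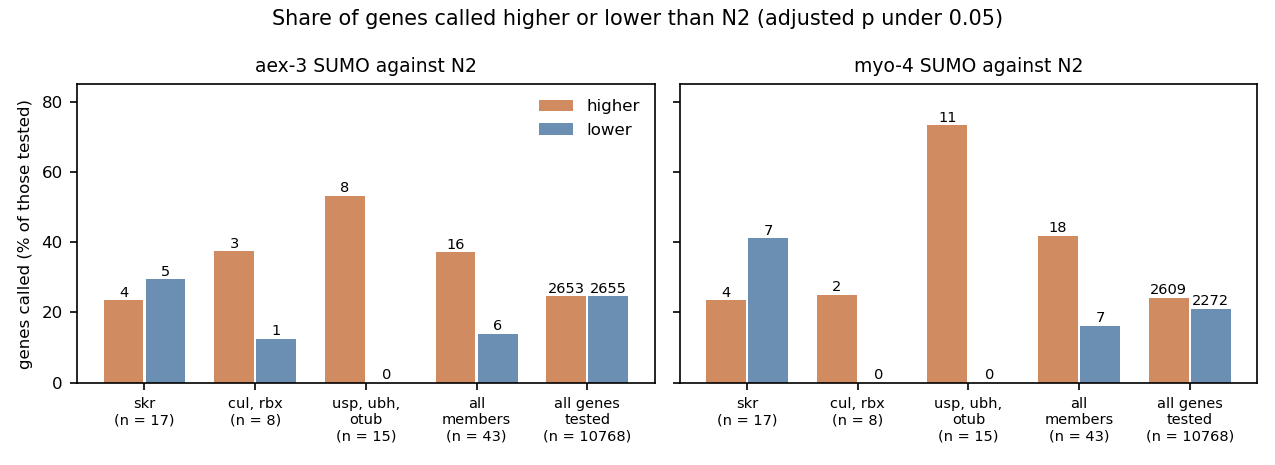
Percentage of tested genes called higher (orange) or lower (blue) than N2 in aex-3 SUMO (left) and myo-4 SUMO (right), for families, all members and all genes tested, with the number of genes above each bar. The skr and all-member bars include skr-7 and skr-13, which passed the filter with no N2 array above its limit. No deubiquitinase (usp, ubh, otub) was called lower in either line, except ubh-1 in aex-3 SUMO after quantile normalization, with array weights or without N2 replicate 3, while 5 of 17 skr genes were lower in aex-3 SUMO and 7 in myo-4 SUMO.

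**Figure D2:**
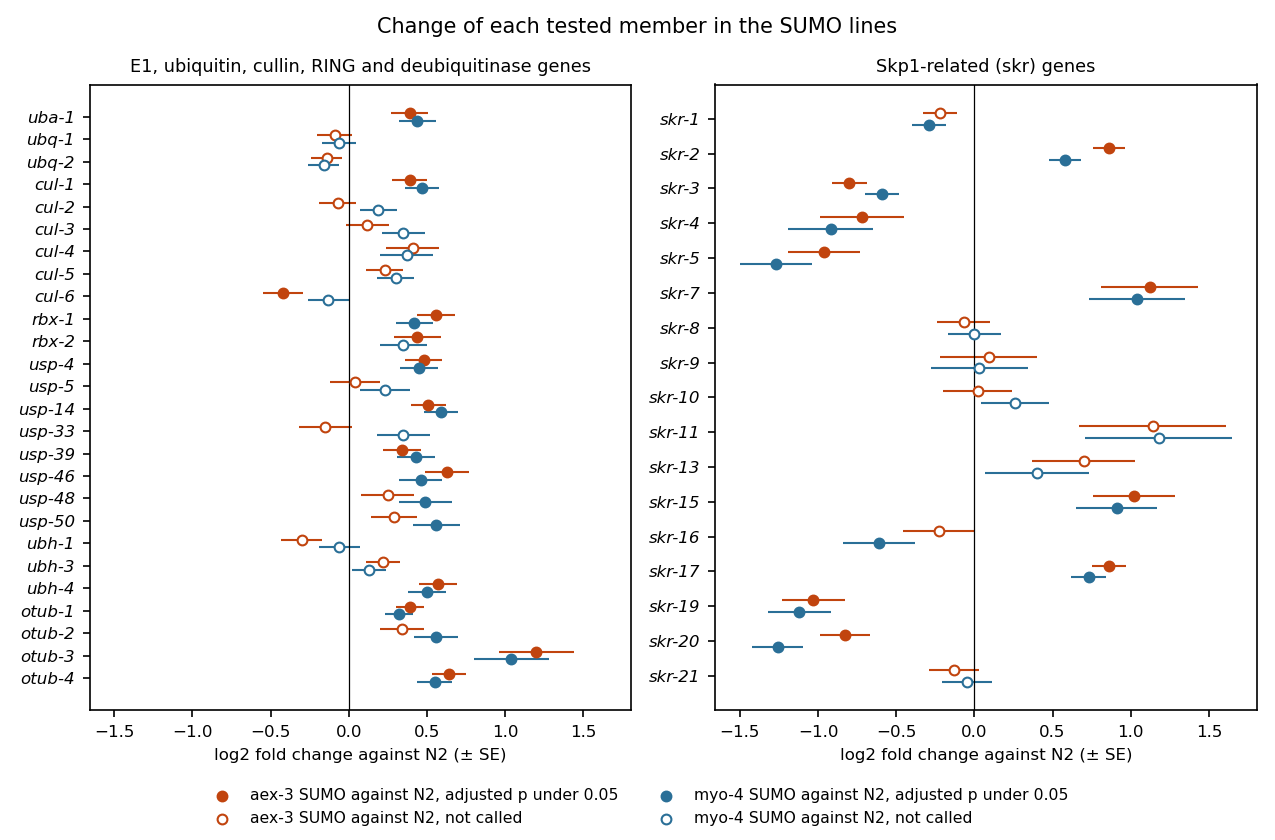
Log2 fold change against N2 (x axis, points with SE bars) of each tested gene in aex-3 SUMO (red) and myo-4 SUMO (blue). Filled points passed an adjusted p of 0.05. The skr genes spread widely to both sides of 0, and the ubq genes lie close to 0.

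The E1 gene uba-1 encodes the enzyme that starts all ubiquitin conjugation. Its signal was 559.7, 554.5 and 573.9 in aex-3 SUMO, 613.5, 497.7 and 651.6 in myo-4 SUMO, and 412.6, 460.1 and 415.7 in N2. All arrays of both lines lay above all N2 arrays. The log2 fold change was 0.39 ± 0.12 (SE, adjusted p = 0.0141) in aex-3 SUMO and 0.44 ± 0.12 (adjusted p = 0.00792) in myo-4 SUMO. A second uba-1 probe set gave 0.31 (adjusted p = 0.0392) in aex-3 SUMO and 0.43 (adjusted p = 0.00968) in myo-4 SUMO. The call in aex-3 SUMO was lost when replicate 3 of that line was left out (0.38, adjusted p = 0.0513).

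The ubiquitin genes themselves did not pass the test. For ubq-1, which encodes a chain of ubiquitin units that is cut into monomers, signal was 2374.3, 2395.0 and 2488.0 in aex-3 SUMO, 2175.3, 2485.8 and 2775.9 in myo-4 SUMO, and 2331.8, 2524.9 and 2898.1 in N2. The groups overlapped. The 95% interval of the log2 fold change ran from -0.33 to 0.15 in aex-3 SUMO and from -0.31 to 0.18 in myo-4 SUMO, which leaves room for small changes in either direction. A second, dimmer ubq-1 probe set gave -0.16 (limma, adjusted p = 0.232) in aex-3 SUMO and -0.20 (adjusted p = 0.14) in myo-4 SUMO. With that probe set all myo-4 SUMO arrays lay below N2. For ubq-2, which encodes ubiquitin fused to a ribosomal protein, signal was 3041.0, 3195.0 and 3305.4 in aex-3 SUMO, 2767.9, 3266.1 and 3364.2 in myo-4 SUMO, and 3257.2, 3541.7 and 3707.6 in N2. Its groups overlapped as well, and the log2 fold changes were -0.14 ± 0.10 (adjusted p = 0.278) in aex-3 SUMO and -0.16 ± 0.10 (adjusted p = 0.206) in myo-4 SUMO. The sign of both genes changed with the scaling: after quantile normalization ubq-1 was at 0.06 and 0.13 and ubq-2 at 0.08 and 0.07, in aex-3 SUMO and myo-4 SUMO.

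**Figure D3:**
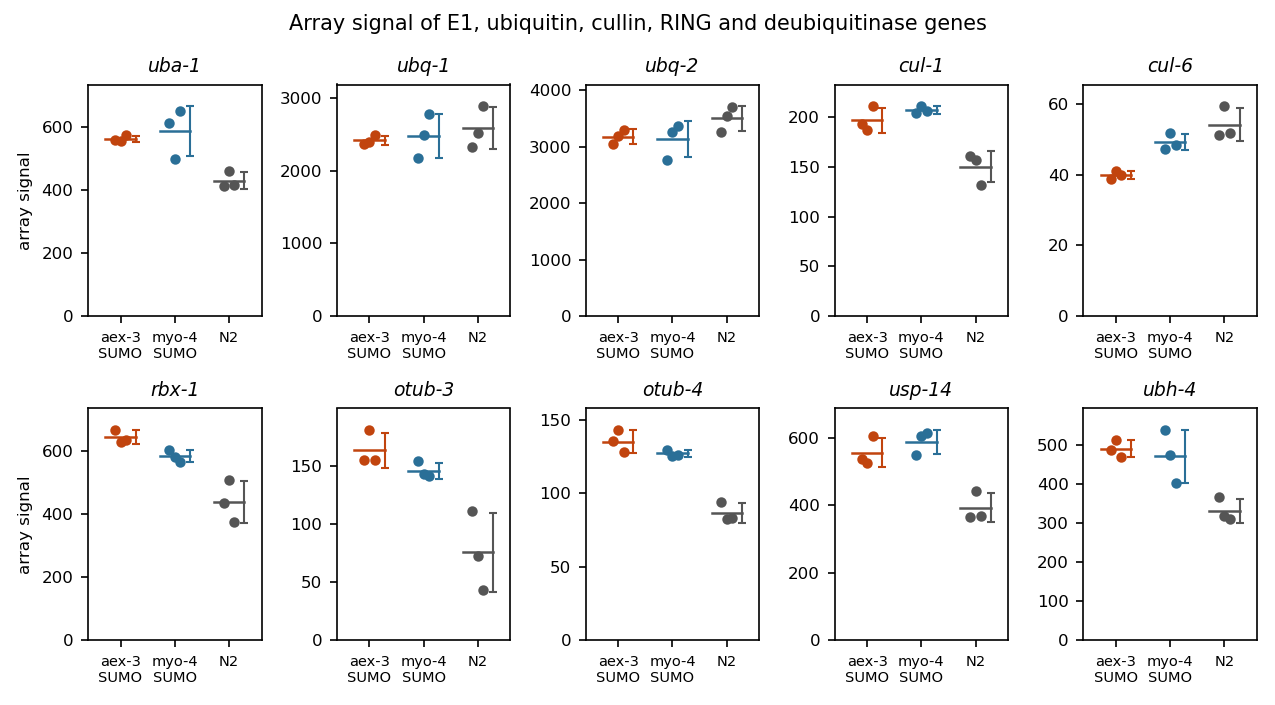
Array signal (linear scale from 0) of uba-1, ubq-1, ubq-2, cul-1, cul-6, rbx-1 and 4 deubiquitinase genes in aex-3 SUMO, myo-4 SUMO and N2; points are arrays, horizontal lines means, and bars SD (n = 3). For uba-1, cul-1, rbx-1 and the deubiquitinases all arrays of both lines lie above those of N2, whereas the groups of ubq-1 overlap.

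Among cullins, cul-1 rose in both lines and cul-6 fell in aex-3 SUMO. The scaffold of the SCF ligases, CUL-1, is known in worms for its role in leaving the cell cycle. Its gene had a signal of 193.5, 186.7 and 211.0 in aex-3 SUMO, 204.1, 211.6 and 206.6 in myo-4 SUMO, and 161.1, 157.2 and 132.2 in N2. Every array of either line was above the N2 arrays. The log2 fold change was 0.39 ± 0.11 (adjusted p = 0.0128) in aex-3 SUMO and 0.47 ± 0.11 (adjusted p = 0.00549) in myo-4 SUMO. In aex-3 SUMO the call was lost after quantile normalization (0.25, adjusted p = 0.0859) and without aex-3 SUMO replicate 3 (0.34, adjusted p = 0.0615). A second, dimmer cul-1 probe set gave 0.41 (adjusted p = 0.0799) in aex-3 SUMO and 0.43 (adjusted p = 0.0682) in myo-4 SUMO.

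The cul-6 gene encodes a cullin that worms use, with Skp1-related proteins, in the response to pathogens inside intestinal cells. Its signal was 38.7, 41 and 40 in aex-3 SUMO, 47.4, 51.8 and 48.5 in myo-4 SUMO, and 51.3, 59.6 and 51.7 in N2. The aex-3 SUMO arrays lay below all others, and myo-4 SUMO overlapped with N2. The log2 fold change was -0.42 ± 0.13 (adjusted p = 0.0157) in aex-3 SUMO and -0.13 ± 0.13 (adjusted p = 0.415) in myo-4 SUMO. The call in aex-3 SUMO depended on the processing. It was lost after quantile normalization (-0.28, adjusted p = 0.0971), after median centring (-0.21, adjusted p = 0.215), without aex-3 SUMO replicate 1 (-0.40, adjusted p = 0.0543) and without N2 replicate 2 (-0.36, adjusted p = 0.0539).

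The other cullin genes did not pass with the deposited scaling, but after median centring, which raised all genes, cul-2 (0.33, adjusted p = 0.044) and cul-3 (0.50, adjusted p = 0.013) passed in myo-4 SUMO and cul-4 and cul-5 in both lines. The gene of CUL-2, which works with elongin adaptors, had a signal of 89.7 to 106.3 in aex-3 SUMO, 107.5 to 125.2 in myo-4 SUMO and 99.0 to 109.2 in N2, with log2 fold changes of -0.07 ± 0.12 (adjusted p = 0.656) in aex-3 SUMO and 0.19 ± 0.12 (adjusted p = 0.214) in myo-4 SUMO. Its second probe set was at -0.19 ± 0.21 in myo-4 SUMO, the opposite sign. CUL-3 pairs with BTB-domain receptors such as MEL-26, and its gene was at 31.6 to 35.8 in aex-3 SUMO, 36.4 to 41.5 in myo-4 SUMO and 29.5 to 32.3 in N2, with log2 fold changes of 0.12 ± 0.14 (adjusted p = 0.512) in aex-3 SUMO and 0.35 ± 0.14 (adjusted p = 0.0612) in myo-4 SUMO. After quantile normalization cul-3 passed in myo-4 SUMO (0.48, adjusted p = 0.0161). CUL-4, which limits the licensing of DNA replication to once per cycle, had a gene signal of 75 to 87.7 in aex-3 SUMO, 75.4 to 91.1 in myo-4 SUMO and 49.9 to 80.2 in N2, with changes of 0.41 ± 0.17 (adjusted p = 0.058) in aex-3 SUMO and 0.37 ± 0.17 (adjusted p = 0.0844) in myo-4 SUMO. N2 replicate 1, at 80.2, lay within the range of both lines; without it cul-4 passed in aex-3 SUMO (0.59, adjusted p = 0.00427) and in myo-4 SUMO (0.55, adjusted p = 0.00654). It also passed in aex-3 SUMO after quantile normalization (0.46, adjusted p = 0.0476), with the replicate block (0.41, adjusted p = 0.035) and with array weights (0.47, adjusted p = 0.0139), and with array weights in myo-4 SUMO (0.40, adjusted p = 0.0386). For cul-5 the signal was 78.2 to 94.9 in aex-3 SUMO, 87.4 to 96.5 in myo-4 SUMO and 67.5 to 79.4 in N2, with changes of 0.23 ± 0.12 (adjusted p = 0.132) in aex-3 SUMO and 0.30 ± 0.12 (adjusted p = 0.063) in myo-4 SUMO; it passed in myo-4 SUMO without N2 replicate 3 (0.35, adjusted p = 0.0473) and with array weights (0.38, adjusted p = 0.0307).

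RING subunits bind the E2 in these ligases. The common subunit RBX-1 had a gene signal of 668.2, 628.0 and 635.4 in aex-3 SUMO, 603.1, 582.0 and 565.8 in myo-4 SUMO, and 433.7, 508.6 and 375.1 in N2. The N2 arrays were all below those of both lines. It rose by 0.56 ± 0.12 on the log2 scale (adjusted p = 0.00187) in aex-3 SUMO and by 0.42 ± 0.12 (adjusted p = 0.011) in myo-4 SUMO. For rbx-2, the partner of CUL-5, signal was 141.8, 124.2 and 180.9 in aex-3 SUMO, 147.0, 134.3 and 133.7 in myo-4 SUMO, and 104.3, 126.8 and 95.2 in N2. Replicate 2 of aex-3 SUMO lay below N2 replicate 2, so these groups overlapped, while myo-4 SUMO lay above N2. The log2 fold change was 0.44 ± 0.15 (adjusted p = 0.0293) in aex-3 SUMO and 0.35 ± 0.15 (adjusted p = 0.0761) in myo-4 SUMO. The call in aex-3 SUMO was lost when replicate 1 (0.47, adjusted p = 0.0586) or replicate 3 (0.29, adjusted p = 0.147) of that line was left out, or replicate 3 of N2 (0.35, adjusted p = 0.0905). It was lost too after quantile normalization (0.33, adjusted p = 0.0953) and with array weights (0.32, adjusted p = 0.0935), and a second rbx-2 probe set did not pass (0.36, adjusted p = 0.124). In myo-4 SUMO rbx-2 passed without N2 replicate 2 (0.47, adjusted p = 0.0322) and after median centring (0.50, adjusted p = 0.021).

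SKR-1 and SKR-2 are the main adaptors of the CUL-1 ligase, and their genes are adjacent on chromosome I (assembly WBcel235, with 0 coding genes between them). The changes of the 2 neighbours had opposite signs with the deposited scaling. The skr-2 signal was 561.7, 625.6 and 627.1 in aex-3 SUMO, 537.0, 502.0 and 462.1 in myo-4 SUMO, and 341.8, 344.9 and 312.6 in N2. All arrays of both lines lay above N2, 1.81-fold higher in aex-3 SUMO and 1.5-fold higher in myo-4 SUMO. Its log2 fold change was 0.86 ± 0.10 (adjusted p = 7.38e-05) in aex-3 SUMO and 0.58 ± 0.10 (adjusted p = 0.000862) in myo-4 SUMO. The skr-1 signal was 357.3, 440.2 and 415.5 in aex-3 SUMO, 387.9, 378.6 and 379.8 in myo-4 SUMO, and 481.9, 432.7 and 492.8 in N2. The aex-3 SUMO and N2 arrays overlapped, and the myo-4 SUMO arrays lay below N2. Its log2 fold change was -0.22 ± 0.11 (adjusted p = 0.116) in aex-3 SUMO and -0.29 ± 0.11 (adjusted p = 0.044) in myo-4 SUMO.

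The 2 genes differed in how far their values held. After median centring, which raised all genes, skr-1 was at 0.00 (adjusted p = 0.995) in aex-3 SUMO and -0.15 (adjusted p = 0.33) in myo-4 SUMO. The skr-1 call in myo-4 SUMO was lost without any one of N2 replicates 1 and 3, aex-3 SUMO replicates 2 and 3 and the 3 myo-4 SUMO replicates, with values of -0.30 to -0.26 and adjusted p of 0.055 to 0.113, and also with array weights (-0.25, adjusted p = 0.0926) and with the replicate block (-0.29, adjusted p = 0.0699). The skr-2 call held in all 18 alternatives in each line, with a range of 0.81 to 1.08 for aex-3 SUMO and of 0.53 to 0.73 for myo-4 SUMO. How far the probes of one gene also bind RNA of the other was not tested, as probe sequences were not used here.

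Other Skp1-related genes that rose were skr-17 and skr-15. The skr-17 signal was 230.2, 228.1 and 239.0 in aex-3 SUMO, 231.7, 210.0 and 196.2 in myo-4 SUMO, and 134.2, 130.8 and 117.9 in N2. No array of either line overlapped with N2, and the log2 fold change was 0.86 ± 0.11 (adjusted p = 9.98e-05) in aex-3 SUMO and 0.73 ± 0.11 (adjusted p = 0.000288) in myo-4 SUMO. The dimmer skr-15 was at 30.4, 34.3 and 36.1 in aex-3 SUMO, 36.4, 27.4 and 29.1 in myo-4 SUMO, and 22.8, 17.7 and 9.3 in N2. All 3 N2 arrays were lower than either line, with log2 fold changes of 1.02 ± 0.26 (adjusted p = 0.00581) in aex-3 SUMO and 0.91 ± 0.26 (adjusted p = 0.0124) in myo-4 SUMO. Without myo-4 SUMO replicate 1 the change in myo-4 SUMO was 0.79 (adjusted p = 0.0587). No rise is read from the dim skr-7, whose signal was 15.1 to 20.2 in aex-3 SUMO, 12.4 to 18.8 in myo-4 SUMO and 4.5 to 11.6 in N2. It passed the filter on signal through the SUMO lines, with 0 of 3 N2 arrays above the limit, so a difference was built into its being tested. The log2 fold changes were 1.12 ± 0.31 (adjusted p = 0.00957) in aex-3 SUMO and 1.04 ± 0.31 (adjusted p = 0.0158) in myo-4 SUMO. In myo-4 SUMO skr-7 did not pass without N2 replicate 3 (0.79, adjusted p = 0.0561), myo-4 SUMO replicate 1 (0.98, adjusted p = 0.0597) or myo-4 SUMO replicate 2 (0.93, adjusted p = 0.063).

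In worms, SKR-3, SKR-4 and SKR-5 are adaptors used with CUL-6 in the intracellular pathogen response, and all 3 of their genes, on chromosome V, fell in both lines, although the call of skr-4 in aex-3 SUMO was lost after median centring. The skr-3 signal was 381.1, 393.3 and 351.4 in aex-3 SUMO, 417.7, 426.7 and 463.5 in myo-4 SUMO, and 670.2, 586.8 and 715.9 in N2. Each array of the SUMO lines was below each N2 array, and the log2 fold change was -0.80 ± 0.11 (adjusted p = 0.000134) in aex-3 SUMO and -0.59 ± 0.11 (adjusted p = 0.00105) in myo-4 SUMO. The skr-5 signal was 24.1, 18.2 and 22.5 in aex-3 SUMO, 17, 17.2 and 17.1 in myo-4 SUMO, and 41.3, 31.1 and 63.3 in N2. The N2 arrays varied most and all lay above both lines, with log2 fold changes of -0.96 ± 0.23 (adjusted p = 0.00441) in aex-3 SUMO and -1.27 ± 0.23 (adjusted p = 0.000937) in myo-4 SUMO.

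The skr-4 values rested on the N2 arrays, which differed among themselves. Its signal was 143.4, 197.3 and 152.5 in aex-3 SUMO, 121.3, 161.9 and 146.0 in myo-4 SUMO, and 165.4, 267.3 and 442.8 in N2. N2 replicate 3 was the highest and N2 replicate 1 lay within the range of aex-3 SUMO. The log2 fold change was -0.72 ± 0.27 (adjusted p = 0.0407) in aex-3 SUMO and -0.92 ± 0.27 (adjusted p = 0.0148) in myo-4 SUMO. Without N2 replicate 3 the change in aex-3 SUMO was -0.37 (adjusted p = 0.164). That call was also lost after median centring (-0.50, adjusted p = 0.119), with no filter (-0.72, adjusted p = 0.0743), and without N2 replicate 2, aex-3 SUMO replicate 1 or 3, or myo-4 SUMO replicate 1 or 3, at -0.73 to -0.63 with adjusted p of 0.0525 to 0.123. The call in myo-4 SUMO was lost without myo-4 SUMO replicate 1 (-0.80, adjusted p = 0.0673). One further probe set names both skr-3 and skr-4 and was left out.

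On the X chromosome skr-20, skr-19 and skr-21 follow each other with 0 coding genes between them. The skr-19 signal was 229.6, 226.3 and 210.4 in aex-3 SUMO, 209.2, 201.9 and 216.3 in myo-4 SUMO, and 323.4, 423.4 and 691.0 in N2. All N2 arrays were above both lines and spread widely, and the log2 fold change was -1.03 ± 0.20 (adjusted p = 0.00139) in aex-3 SUMO and -1.12 ± 0.20 (adjusted p = 0.00095) in myo-4 SUMO. A second skr-19 probe set gave -1.01 (adjusted p = 0.000527) in aex-3 SUMO and -1.15 (adjusted p = 0.000262) in myo-4 SUMO. The skr-20 signal was 82.5, 78.1 and 60.3 in aex-3 SUMO, 54.1, 52.1 and 54.9 in myo-4 SUMO, and 146.4, 105.4 and 146.5 in N2. The 3 groups did not overlap, with N2 highest and myo-4 SUMO lowest. The log2 fold change was -0.83 ± 0.16 (adjusted p = 0.0011) in aex-3 SUMO and -1.26 ± 0.16 (adjusted p = 8.97e-05) in myo-4 SUMO. For skr-21 the signal was 27.4 to 37.8 in aex-3 SUMO, 31.2 to 37.6 in myo-4 SUMO and 33.6 to 37.5 in N2, with changes of -0.13 ± 0.16 (adjusted p = 0.534) in aex-3 SUMO and -0.05 ± 0.16 (adjusted p = 0.83) in myo-4 SUMO. Whether probe sets of these neighbours bind each other's RNA was not tested.

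**Figure D4:**
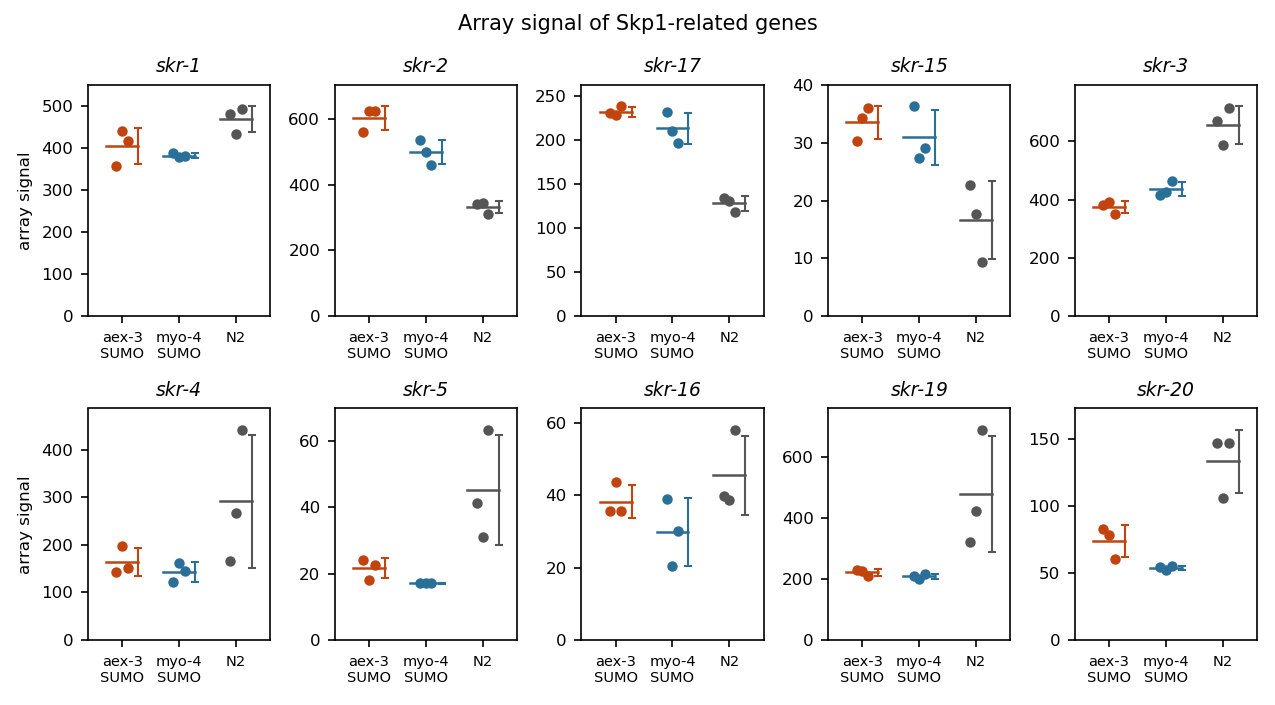
Array signal (linear scale from 0) of 10 Skp1-related genes in aex-3 SUMO, myo-4 SUMO and N2; points are arrays, horizontal lines means, and bars SD (n = 3). In both lines skr-2, skr-17 and skr-15 lie above N2, and skr-3, skr-5, skr-19 and skr-20 lie below it, while skr-4 in N2 spans 165.4 to 442.8.

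Of the remaining Skp1-related genes, skr-16 passed in myo-4 SUMO close to the threshold. Its signal was 35.5 to 43.5 in aex-3 SUMO, 20.3 to 39.0 in myo-4 SUMO and 38.7 to 58.1 in N2, so the groups overlapped, and its log2 fold change was -0.23 ± 0.23 (adjusted p = 0.424) in aex-3 SUMO and -0.61 ± 0.23 (adjusted p = 0.0437) in myo-4 SUMO. Its call was lost in 10 of 17 alternatives, among them quantile normalization (-0.50, adjusted p = 0.0918), median centring (-0.46, adjusted p = 0.0986) and without myo-4 SUMO replicate 2 (-0.37, adjusted p = 0.193), myo-4 SUMO replicate 3 (-0.64, adjusted p = 0.0757), N2 replicate 3 (-0.42, adjusted p = 0.166) or any aex-3 SUMO replicate (-0.61, adjusted p of 0.0533 to 0.0576). The genes skr-8, skr-9 and skr-13 lie next to each other on chromosome IV and, like skr-10, did not pass in either line. Their log2 fold changes ran from -0.07 (skr-8) to 0.70 (skr-13, adjusted p = 0.0972) in aex-3 SUMO and from 0.00 (skr-8) to 0.40 (skr-13) in myo-4 SUMO. The probe sets of skr-8, skr-9 and skr-13 carry the suffix by which the maker marks probes that may bind several transcripts. The probe set used for uba-1 above carries it as well. The 2 probe sets of skr-8 differed in sign in aex-3 SUMO. Like skr-7, skr-13 passed the filter through the SUMO lines, with 0 of 3 N2 arrays above the limit. It was called in aex-3 SUMO after quantile normalization (0.92, adjusted p = 0.0361) and median centring (0.91, adjusted p = 0.0311). The dim skr-11 was at 15.8 to 21.5 in aex-3 SUMO, 13.9 to 25.3 in myo-4 SUMO and 2.0 to 18.3 in N2, with log2 fold changes of 1.14 ± 0.47 (adjusted p = 0.0615) in aex-3 SUMO and 1.18 ± 0.47 (adjusted p = 0.0582) in myo-4 SUMO. Only 1 of 3 N2 arrays, replicate 2, was above the filter limit for skr-11. Leaving it out therefore built in a difference, as for skr-7, and no rise is read from that setting. Without N2 replicate 2 skr-11 passed, at 1.72 (adjusted p = 0.00493) in aex-3 SUMO and 1.76 (adjusted p = 0.00485) in myo-4 SUMO. It also passed after quantile normalization (1.38, adjusted p = 0.035, in aex-3 SUMO and 1.32, adjusted p = 0.0432, in myo-4 SUMO) and after median centring (1.36, adjusted p = 0.0259, in aex-3 SUMO and 1.32, adjusted p = 0.0317, in myo-4 SUMO).

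Among the deubiquitinases, the otub genes belong to the ovarian tumour (OTU) family, and 3 of 4 rose in aex-3 SUMO and 4 of 4 in myo-4 SUMO. The largest changes were those of otub-3. The otub-3 signal was 155.6, 181.8 and 155.7 in aex-3 SUMO, 154.4, 143.2 and 141.5 in myo-4 SUMO, and 111.2, 72.2 and 43.3 in N2. Both lines lay above N2, where the arrays differed by more than within either line, and the log2 fold change was 1.2 ± 0.24 (adjusted p = 0.00159) in aex-3 SUMO and 1.04 ± 0.24 (adjusted p = 0.00426) in myo-4 SUMO. The otub-4 signal was 135.1, 143.2 and 128.0 in aex-3 SUMO, 129.5, 124.9 and 125.7 in myo-4 SUMO, and 94.2, 82.1 and 82.9 in N2. Its groups were separate too, with changes of 0.64 ± 0.11 (adjusted p = 0.000639) in aex-3 SUMO and 0.55 ± 0.11 (adjusted p = 0.00196) in myo-4 SUMO. OTUB-1, the worm counterpart of the human otubain, had a gene signal of 564.1 to 591.9 in aex-3 SUMO, 537.3 to 564.8 in myo-4 SUMO and 428.2 to 447.3 in N2. Its changes were 0.39 ± 0.09 (adjusted p = 0.00389) in aex-3 SUMO and 0.32 ± 0.09 (adjusted p = 0.0126) in myo-4 SUMO; without myo-4 SUMO replicate 2 the change in myo-4 SUMO was 0.31 (adjusted p = 0.0538). The otub-2 signal was 65.8 to 74.8 in aex-3 SUMO, 79.9 to 87.3 in myo-4 SUMO and 44.5 to 64 in N2, with changes of 0.34 ± 0.14 (adjusted p = 0.0703) in aex-3 SUMO and 0.56 ± 0.14 (adjusted p = 0.00785) in myo-4 SUMO. In aex-3 SUMO otub-2 passed after quantile normalization (0.42, adjusted p = 0.0374), after median centring (0.56, adjusted p = 0.00463) and without N2 replicate 2 (0.44, adjusted p = 0.0347).

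Also higher in both lines were usp-14 and ubh-4, whose enzymes act on the proteasome. The usp-14 gene encodes an enzyme that trims ubiquitin from proteins docked there. Its signal was 535.9, 526.0 and 605.5 in aex-3 SUMO, 547.8, 604.6 and 613.5 in myo-4 SUMO, and 366.3, 441.5 and 367.7 in N2. All N2 arrays were lower, with log2 fold changes of 0.51 ± 0.11 (adjusted p = 0.00293) in aex-3 SUMO and 0.59 ± 0.11 (adjusted p = 0.0013) in myo-4 SUMO. UBH-4 belongs to the ubiquitin C-terminal hydrolase (UCH) family. Its gene was at 487.0, 514.2 and 470.5 in aex-3 SUMO, 539.6, 475.3 and 402.5 in myo-4 SUMO, and 367.2, 317.7 and 309.8 in N2. The groups were again separate from N2, with changes of 0.57 ± 0.12 (adjusted p = 0.00259) in aex-3 SUMO and 0.50 ± 0.12 (adjusted p = 0.00575) in myo-4 SUMO. Its relatives ubh-1 and ubh-3 did not pass in either line with the deposited scaling: ubh-1 was at -0.30 ± 0.13 (adjusted p = 0.0623) in aex-3 SUMO and -0.06 ± 0.13 in myo-4 SUMO, and ubh-3 at 0.22 ± 0.11 (adjusted p = 0.0943) in aex-3 SUMO and 0.13 ± 0.11 in myo-4 SUMO. In aex-3 SUMO ubh-1 was called lower after quantile normalization (-0.42, adjusted p = 0.0221), with array weights (-0.36, adjusted p = 0.0254) and without N2 replicate 3 (-0.37, adjusted p = 0.0378), and ubh-3 higher after median centring (0.44, adjusted p = 0.00594).

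The other usp genes encode ubiquitin-specific proteases. In worm neurons USP-46 is known to act on the glutamate receptor GLR-1. Its gene was at 150.3, 151.4 and 150.1 in aex-3 SUMO, 143.3, 134.2 and 122.7 in myo-4 SUMO, and 121.4, 90.7 and 81.6 in N2. The lines lay above N2. The summed signal of the neuronal markers given above was lower in both lines, though not every marker was, and their part in this value was not tested. The log2 fold changes of usp-46 were 0.63 ± 0.14 (adjusted p = 0.0032) in aex-3 SUMO and 0.46 ± 0.14 (adjusted p = 0.0205) in myo-4 SUMO. In myo-4 SUMO the call was lost without N2 replicate 2 or 3, or myo-4 SUMO replicate 1 or 2, at 0.34 to 0.45 with adjusted p of 0.0564 to 0.0805, and after quantile normalization (0.38, adjusted p = 0.0539). For usp-4 the signal was 214.3 to 240.4 in aex-3 SUMO, 197.4 to 256.1 in myo-4 SUMO and 153.4 to 169.6 in N2, with changes of 0.48 ± 0.12 (adjusted p = 0.00585) in aex-3 SUMO and 0.45 ± 0.12 (adjusted p = 0.00932) in myo-4 SUMO. Without myo-4 SUMO replicate 1 the change in myo-4 SUMO was 0.34 (adjusted p = 0.0514). A second, dimmer usp-4 probe set did not pass in aex-3 SUMO (0.29, limma, adjusted p = 0.269), where its arrays overlapped with N2. In myo-4 SUMO that probe set was at 0.68 (adjusted p = 0.02), but with 0 of 3 N2 arrays above the filter limit.

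Of the other usp genes, usp-39, whose human counterpart is a splicing factor, was at 174.6 to 184.9 in aex-3 SUMO, 185.5 to 195.3 in myo-4 SUMO and 122.0 to 166.9 in N2. Its log2 fold changes were 0.34 ± 0.12 (adjusted p = 0.0378) in aex-3 SUMO and 0.43 ± 0.12 (adjusted p = 0.0141) in myo-4 SUMO. The call in aex-3 SUMO was lost without any single array other than N2 replicate 1, at 0.24 to 0.36 with adjusted p of 0.0506 to 0.115. After quantile normalization usp-39 passed in neither line (0.20, adjusted p = 0.207, in aex-3 SUMO and 0.29, adjusted p = 0.0716, in myo-4 SUMO). The usp-50 signal was 81.3 to 100.3 in aex-3 SUMO, 102.0 to 111.1 in myo-4 SUMO and 58.2 to 88.0 in N2, and it passed in myo-4 SUMO (0.56 ± 0.15, adjusted p = 0.00999) but not in aex-3 SUMO (0.29 ± 0.15, adjusted p = 0.127). In aex-3 SUMO it passed without N2 replicate 2 (0.43, adjusted p = 0.0333) and after median centring (0.51, adjusted p = 0.0131). Its probe sets differed there: one passed (0.32, adjusted p = 0.047, all arrays above N2) and another was at 0.02 (adjusted p = 0.944). The usp-48 gene also passed in one line, at 0.49 ± 0.17 (adjusted p = 0.0313) in myo-4 SUMO and 0.25 ± 0.17 (adjusted p = 0.231) in aex-3 SUMO. Its arrays overlapped with N2, and the call was lost without N2 replicate 1 or 3, or myo-4 SUMO replicate 1 or 3, at 0.37 to 0.45 with adjusted p of 0.0833 to 0.111. It was lost too with array weights (0.26, adjusted p = 0.222), after quantile normalization (0.46, adjusted p = 0.059) and with no filter (0.49, adjusted p = 0.0538). In aex-3 SUMO usp-48 passed without N2 replicate 2 (0.44, adjusted p = 0.0365) and after median centring (0.47, adjusted p = 0.0314). Neither usp-5 nor usp-33 passed in either line with the deposited scaling. The log2 fold changes of usp-5 were 0.04 ± 0.16 in aex-3 SUMO and 0.23 ± 0.16 in myo-4 SUMO, and those of usp-33 were -0.15 ± 0.17 in aex-3 SUMO and 0.35 ± 0.17 in myo-4 SUMO. In myo-4 SUMO usp-33 passed after quantile normalization (0.49, adjusted p = 0.0359) and median centring (0.49, adjusted p = 0.032). The second usp-33 probe set was at 0.49 ± 0.29 in aex-3 SUMO.

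The second question is whether the 2 SUMO lines differed from each other. Between myo-4 SUMO and aex-3 SUMO, 0 of the 43 genes passed (limma), where 0.279% of all genes did, and 4 (9.3%) had an unadjusted p under 0.05, beside 8.74% of all genes. Those 4 were usp-33, with a log2 difference (myo-4 SUMO minus aex-3 SUMO) of 0.49 and a 95% interval of 0.12 to 0.87, cul-6 (0.29, interval 0.02 to 0.57), skr-20 (-0.43, interval -0.77 to -0.09) and skr-2 (-0.27, interval -0.50 to -0.05). A second usp-33 probe set was at -0.05 (interval -0.67 to 0.58). The smallest adjusted p was 0.408, for usp-33. The interval stayed within 1 log2 unit of 0 for 41 of the 43 genes and within 0.5 for 22. Genes called in 1 line and not in the other therefore were not shown to differ between the lines: rbx-2 had a difference of -0.09 (interval -0.42 to 0.24), otub-2 of 0.22 (-0.09 to 0.54), usp-50 of 0.27 (-0.06 to 0.59), usp-48 of 0.24 (-0.13 to 0.61), skr-1 of -0.08 (-0.31 to 0.16) and skr-16 of -0.38 (-0.87 to 0.11).

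**Figure D5:**
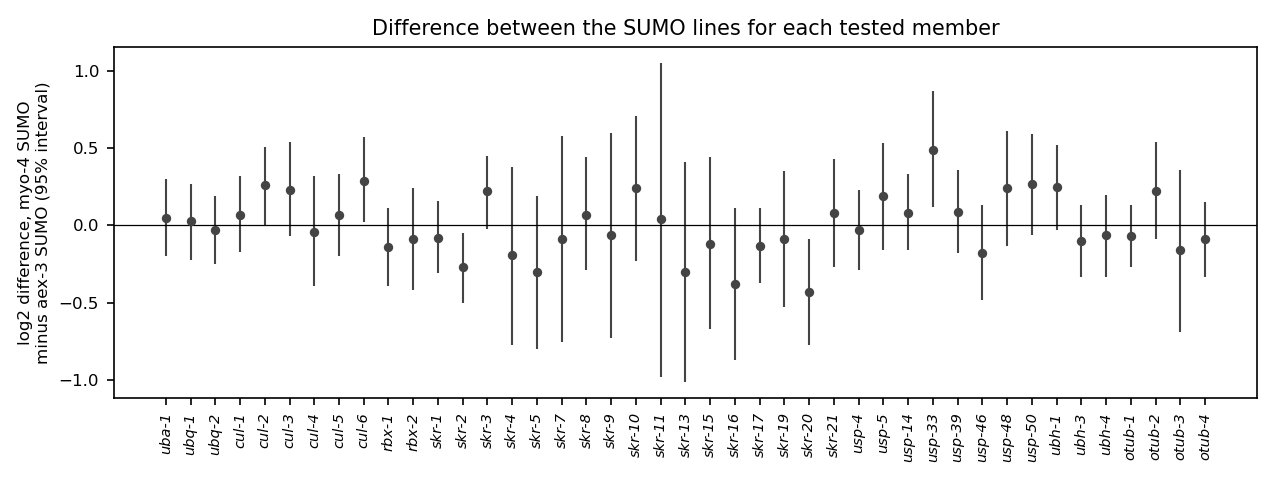
Log2 difference between myo-4 SUMO and aex-3 SUMO for each of the 43 tested genes, with its 95% interval (before adjustment for the number of genes). The largest difference is 0.49, for usp-33, whose second probe set (not shown) was at -0.05, and the interval of most genes includes 0.

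Partners of these genes in the pathway were described from lists, given beside the shares of all genes (24.6% higher and 24.7% lower in aex-3 SUMO, 24.2% higher and 21.1% lower in myo-4 SUMO). Of 34 tested partners of cullins (F-box, BTB and other receptors, elongins, and the enzymes that attach or remove the cullin modifier NEDD8), 16 were higher and 1 lower in each line, with a median log2 fold change of 0.30 in aex-3 SUMO and 0.29 in myo-4 SUMO. After median centring 24 were higher in aex-3 SUMO and 22 in myo-4 SUMO, beside 3930 and 3490 of all 10768 genes. After quantile normalization the median in myo-4 SUMO was 0.16, against 0.04 over all genes. The 1 lower was mfb-1, an F-box gene related to a muscle atrophy factor of mammals. Its signal was 35.7 to 51.9 in aex-3 SUMO, 36.4 to 40.8 in myo-4 SUMO and 107.1 to 158.1 in N2, with changes of -1.49 ± 0.17 (adjusted p = 5.96e-05) in aex-3 SUMO and -1.64 ± 0.17 (adjusted p = 3.23e-05) in myo-4 SUMO. Those that rose include mec-15, an F-box gene needed in touch neurons (0.94 ± 0.12 in aex-3 SUMO and 0.70 ± 0.12 in myo-4 SUMO), lrr-1, a receptor of CUL-2 ligases (0.84 ± 0.14 in aex-3 SUMO and 0.69 ± 0.14 in myo-4 SUMO), fsn-1, an F-box gene of synapses (0.78 ± 0.14 in aex-3 SUMO and 0.83 ± 0.14 in myo-4 SUMO), and zif-1, through which CUL-2 clears germline proteins from somatic cells of the embryo (0.82 ± 0.15 in aex-3 SUMO and 0.97 ± 0.15 in myo-4 SUMO).

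Of 25 tested ubiquitin ligases without a cullin, 11 were higher and 2 lower in aex-3 SUMO and 9 higher and 1 lower in myo-4 SUMO, with medians of 0.15 in aex-3 SUMO and 0.16 in myo-4 SUMO. After median centring 14 were higher in aex-3 SUMO and 12 in myo-4 SUMO, beside 3930 and 3490 of all 10768 genes. The median was 0.06 in aex-3 SUMO without N2 replicate 2 and 0.09 in myo-4 SUMO after quantile normalization, and without N2 replicate 1, 3 were lower in myo-4 SUMO. The parkin homologue pdr-1 was at 0.62 ± 0.10 in aex-3 SUMO and 0.58 ± 0.10 in myo-4 SUMO, rnf-1 at 0.67 ± 0.11 in aex-3 SUMO and 0.71 ± 0.11 in myo-4 SUMO, and the BRCA1 homologue brc-1 at 0.60 ± 0.13 in aex-3 SUMO and 0.79 ± 0.13 in myo-4 SUMO. The RING ligase gene siah-1 was lower, at -1.04 ± 0.20 (adjusted p = 0.001) in aex-3 SUMO and -1.19 ± 0.20 (adjusted p = 0.000496) in myo-4 SUMO. In the anaphase-promoting complex, the ligase that drives cells out of mitosis and meiosis, 9 of 12 tested genes were higher and 0 lower in aex-3 SUMO and 6 were higher and 0 lower in myo-4 SUMO, with medians of 0.56 in aex-3 SUMO and 0.45 in myo-4 SUMO. Its subunit gene apc-2 had a signal of 195.3 to 220.1 in aex-3 SUMO, 192.3 to 236.6 in myo-4 SUMO and 104.2 to 127.7 in N2 (0.80 ± 0.12 in aex-3 SUMO and 0.83 ± 0.12 in myo-4 SUMO), emb-27 changed by 0.61 ± 0.10 in aex-3 SUMO and 0.81 ± 0.10 in myo-4 SUMO, and such-1 by 0.96 ± 0.17 in aex-3 SUMO and 0.82 ± 0.17 in myo-4 SUMO. The oocyte and germline markers moved the same way, 17 of 20 higher and 0 lower in aex-3 SUMO (median 0.80) and 18 of 20 higher and 0 lower in myo-4 SUMO (median 0.81), and their part in these values was not tested.

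Downstream of conjugation, 7 of 13 tested genes of ubiquitin receptors and of the CDC-48 segregase, which pulls ubiquitinated proteins out of complexes, were higher and 0 lower in aex-3 SUMO (median 0.39). In myo-4 SUMO 12 were higher and 0 lower (median 0.45). After median centring 13 of 13 were higher in each line, beside 3930 of all 10768 genes in aex-3 SUMO and 3490 in myo-4 SUMO. Without N2 replicate 3 the count was 5 in aex-3 SUMO and 8 in myo-4 SUMO. Without myo-4 SUMO replicate 2 it was 7 in myo-4 SUMO. The CDC-48 cofactor genes npl-4.1 (0.65 ± 0.13 in aex-3 SUMO and 0.58 ± 0.13 in myo-4 SUMO) and ufd-1 (0.43 ± 0.10 in aex-3 SUMO and 0.42 ± 0.10 in myo-4 SUMO) passed in each line. The probe sets of npl-4.1 and npl-4.2, both in this list, carry the suffix of probes that may bind several transcripts. Of 7 genes of deubiquitinases and their relatives with other names, 3 were higher and 0 lower in aex-3 SUMO (median 0.09). In myo-4 SUMO 4 were higher and 0 lower (median 0.43). The list includes eif-3.F, and csn-5, which was higher in both lines and was also counted among the cullin partners above. The rpn-11 call was lost in 10 of 18 alternatives in aex-3 SUMO (limma, adjusted p of 0.056 to 0.165) and in 1 of 18 in myo-4 SUMO. The math-33 call in myo-4 SUMO was lost in 2 of 18. Without 1 array the list median was 0.05 to 0.18 in aex-3 SUMO, highest without aex-3 SUMO replicate 1 and lowest without aex-3 SUMO replicate 2. The ataxin-3 homologue atx-3 had a signal of 240.6 to 249.8 in aex-3 SUMO, 219.1 to 230.6 in myo-4 SUMO and 106.5 to 145.3 in N2, with changes of 1.0 ± 0.12 (adjusted p = 7.81e-05) in aex-3 SUMO and 0.87 ± 0.12 (adjusted p = 0.000193) in myo-4 SUMO. Its groups did not overlap with N2. Of 6 tested genes of E1 enzymes for ubiquitin-like proteins and their relatives, 4 were higher and 0 lower in aex-3 SUMO and 3 higher and 0 lower in myo-4 SUMO (median 0.40 in aex-3 SUMO, 0.30 in myo-4 SUMO). The higher count in aex-3 SUMO was 2 without N2 replicate 3 or aex-3 SUMO replicate 1 or 2, and 1 without aex-3 SUMO replicate 3. In myo-4 SUMO it was 1 without N2 replicate 3 or myo-4 SUMO replicate 1 or 2, and 1 after quantile normalization. The genes of this list include aos-1, a subunit of the E1 of SUMO (0.40 ± 0.12, adjusted p = 0.0173, in aex-3 SUMO and 0.32 ± 0.12, adjusted p = 0.0482, in myo-4 SUMO), and uba-5, the E1 of the modifier UFM1 (0.39 ± 0.13 in aex-3 SUMO and 0.63 ± 0.13 in myo-4 SUMO). The aos-1 call was lost in 3 of 18 alternatives in aex-3 SUMO (adjusted p of 0.0544 to 0.0586) and in 10 of 18 in myo-4 SUMO (adjusted p of 0.0562 to 0.192), and the uba-5 call in aex-3 SUMO in 6 of 18 (adjusted p of 0.0543 to 0.102).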

How the data were processed

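The authors deposited 1 intensity per probe set and array, on a linear scale, for 9 Affymetrix arrays; per the submitters' processing notes the tool was GCOS (version not given in the sources used here). The 2% trimmed means of the arrays lay within 0.0089%, so no further scaling was applied. They hold no detection calls. From them log2(signal + 1.623) was computed, where 1.623 is the median over arrays of the 10th percentile, which understates changes of dim genes. Of 22625 probe sets, 77 controls were left out, and 14204 were kept that exceeded the array's 40th percentile in 3 or more of the 9 arrays. All arrays entered 1 limma fit (limma 3.58.1, R 4.3.3; lmFit, eBayes with trend; 6 residual and 6.881 prior degrees of freedom); two-sided p-values were adjusted by Benjamini-Hochberg over all probe sets kept, and called at 0.05. The script was tested on simulated data.

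Probe sets were named from the platform annotation, updated through gene identifiers to RefSeq names of assembly WBcel235 (20701 of 20766 single-gene probe sets matched; skr-21 did not, and its position is that of the same symbol). Where a gene had several probe sets, the one with the highest mean signal stood for it; of 11 genes with at least 2 tested, 9 had the same sign in each comparison with N2. The members and lists were chosen with earlier results of these data known, and some genes stand in 2 lists. Values are given for uba-1, all ubq, cul and rbx genes, skr-1 and skr-2, the 10 highest and lowest called members per comparison with N2, up to 5 each way between the lines, and up to 3 genes per list with the smallest p; values of other members were added. Correlation with uba-1 over arrays was left out, as the arrays form separate clusters. Sequences were not used here. Same-numbered replicates did not deviate together (r = -0.194 to 0.0295 across probe sets), so they were not paired. Alternatives were quantile normalization, median centring, no filter, a 60th percentile filter, pseudocounts of 16 and 1, a replicate block, array weights, the mean of a gene's probe sets, and leaving out each array.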

Additional observations from a re-analysis of the deposited data

How the results depend on the processing

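There were 99 single-gene results (all 43 members in each comparison with N2, and 13 members between the lines) and 1757 alternative values. Of these values 69 lost a call, 38 gained one and 46 changed sign against N2, none of these 46 being called. The other 1604 kept their side of the threshold and, against N2, their direction. Changes of sign between the lines were not counted among the 46. Some occurred, as for uba-1 (0.05, with a range of -0.03 to 0.17). Sign changes in aex-3 SUMO after quantile normalization were ubq-1 at 0.06, ubq-2 at 0.08, skr-8 at 0.13, usp-33 at 0.08, skr-21 at 0.06 and usp-5 at -0.06. After median centring they were ubq-1 at 0.13, ubq-2 at 0.08, cul-2 at 0.15, skr-1 at 0.00, skr-8 at 0.15, usp-33 at 0.07 and skr-21 at 0.09. With array weights skr-9 was at 0.00, skr-10 at -0.13 and usp-5 at -0.01, and with the mean of probe sets skr-8 was at 0.15 and usp-33 at 0.17. In myo-4 SUMO quantile normalization gave ubq-1 at 0.13, ubq-2 at 0.07, skr-8 at 0.14 and skr-21 at 0.07; centring gave ubq-1 at 0.09, cul-6 at 0.01, skr-8 at 0.15, ubh-1 at 0.09 and skr-21 at 0.10. There array weights gave skr-9 at -0.11 and the mean of probe sets skr-8 at 0.06. Without 1 array, aex-3 SUMO values ran from -0.19 to 0.06 for skr-8, -0.17 to 0.27 for skr-9, -0.13 to 0.19 for skr-10 and -0.15 to 0.17 for usp-5. Those of myo-4 SUMO ran from -0.15 to 0.03 for ubq-1, -0.12 to 0.13 for skr-8, -0.24 to 0.29 for skr-9, -0.12 to 0.04 for ubh-1 and -0.12 to 0.01 for skr-21. Centring gave 5129 probe sets higher and 2049 lower in aex-3 SUMO, against 3423 and 3410 with the deposited scaling, and a member median of 0.47 against 0.25. Leaving out 1 array gave 12 to 19 members higher and 4 to 6 lower in aex-3 SUMO, and 13 to 19 and 5 to 7 in myo-4 SUMO. Between the lines 26 probe sets were higher and 8 lower. These counts were 330 and 175 with array weights, 11 to 63 and 2 to 29 without 1 array, and 5 lower without a filter or with the replicate block. With array weights 1 member was lower, skr-20 (-0.48, adjusted p = 0.0464). The replicate block gave 17 members higher and 6 lower in aex-3 SUMO, 18 and 5 in myo-4 SUMO, and 0 between the lines. The cause of these shifts was not tested. Without detection calls, whether a dim gene is above background is unknown.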

Other observations

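The array also carries control probe sets for the 3', middle and 5' parts of a worm ubiquitin transcript, which entered no test. The 3' set was at 2186.2 to 2251.1 in aex-3 SUMO, 1932.7 to 2558.9 in myo-4 SUMO and 2221.7 to 2709.8 in N2. The 5' set was at 402.5 to 459.9 in aex-3 SUMO, 501.3 to 534 in myo-4 SUMO and 436.5 to 539.7 in N2. All 3 groups overlapped in the 3' set, and in the 5' set the 2 SUMO lines did not overlap with each other.

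Genes that act with CUL-6 and SKR-3 to SKR-5 in the response to intracellular pathogens were listed after the values of those genes had been seen. Of 8 such genes 3 were bright enough to test. The gene of RCS-1, a RING protein that binds CUL-6, had a signal of 59.4, 80.0 and 68.6 in aex-3 SUMO, 94.4, 83.5 and 75.9 in myo-4 SUMO, and 92.2, 111.0 and 150.7 in N2. Its log2 fold change was -0.73 ± 0.18 (adjusted p = 0.00469) in aex-3 SUMO and -0.45 ± 0.18 (adjusted p = 0.0547) in myo-4 SUMO. The gene of PALS-22, a repressor of that response, was at -0.62 ± 0.23 (adjusted p = 0.0419) in aex-3 SUMO and -0.58 ± 0.23 (adjusted p = 0.0577) in myo-4 SUMO. Its call in aex-3 SUMO was lost in 9 of 17 alternatives, at -0.69 to -0.40 with adjusted p of 0.0527 to 0.189, among them quantile normalization, median centring, and leaving out N2 replicate 1 or 3, aex-3 SUMO replicate 1 or 2, or myo-4 SUMO replicate 2. The RIG-I-like receptor gene drh-1 was at 0.12 ± 0.15 in aex-3 SUMO and 0.02 ± 0.15 in myo-4 SUMO.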
